A study of Mus musculus with 15 samples.

Results

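miR-21a is a mouse liver miRNA read here through both mature products of its hairpin, mmu-miR-21a-5p and mmu-miR-21a-3p, which were found by name among the 696 mouse miRNAs of the array, so that 2 of 696 miRNAs are described. miR-21a-5p was chosen by its measured values, its CR minus SD and CR minus Met differences, and its level under CR is therefore given as a description with no test. Livers came from 15 male B6C57/J mice, with 1 array per mouse and 5 mice per group. The mice were 1 year old when the diets began and stayed on them for the rest of their lives. SD mice ate the AIN-93G standard diet ad libitum, CR mice were held at a 40% caloric restriction of that diet, and Met mice ate it ad libitum with 0.1% metformin by weight. Metformin is an oral drug that lowers blood glucose, and caloric restriction, like metformin, lengthens the life of mice. The comparison asks how a long-term diet or drug changes the miRNA content of the liver. Each array held the RNA of 1 liver sample, and in such a bulk sample fewer cells of a type and less RNA per cell cannot be told apart.

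A miRNA hairpin is cut by DICER1 into a short duplex, of which 1 strand is usually kept in the silencing complex and the other is mostly degraded. For miR-21 the kept strand is the 5p arm, and bases 2 to 8 of it, the seed, pair with target mRNAs. miR-21 is known as an abundant miRNA in many tissues, rises with inflammation, fibrosis and tumor growth in the liver, and represses targets such as Pdcd4. Its gene, Mir21a, lies within the span of Vmp1, a gene for a membrane protein needed for autophagy.

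The hairpin is shown because its 2 arms gave different values on the arrays. By RefSeq, in build GRCm38.p6, it spans chr11:86584067-86584158 on the minus strand, and the capitals mark the 5p arm at positions 18 to 39 and the 3p arm at positions 56 to 77 of its 92 bases.
Mir21a hairpin: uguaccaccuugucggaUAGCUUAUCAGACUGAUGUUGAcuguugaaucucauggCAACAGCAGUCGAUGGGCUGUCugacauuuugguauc
In the mature products, and in the only other mouse miRNA of the RefSeq table with the seed of miR-21a-5p, capitals mark the seed.
miR-21a-5p: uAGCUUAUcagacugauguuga
miR-21a-3p: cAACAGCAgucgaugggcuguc
miR-21c: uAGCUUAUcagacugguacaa
The first 15 bases of miR-21c and miR-21a-5p are identical. miR-21c has no probe among the miRNAs of this array by name, and whether its product also binds the miR-21a-5p probes was not tested. miR-590-5p, another miRNA known for the miR-21 seed, had probes but was detected on 0 of the 15 arrays, and its sequence is not in the table used here. The G and C content was 36.4% for the 5p arm and 59.1% for the 3p arm.

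Some arrays stood apart before any comparison. On CR 2 and CR 3, 167 and 151 miRNAs were detected, against 170 to 205 on the other 13 arrays, and their median Pearson r with the other arrays was 0.933 and 0.928, against 0.971 or more elsewhere. The spread of log signals was smaller there, with SDs of 0.674 and 0.646 against 0.699 or more, while several positive control spots stood higher, such as hur_1 at z-scores of 8.96 and 8.98 against 7.21 to 8.43. All SD arrays and Met 1, 2 and 3 shared slide 1, and all CR arrays and Met 4 and 5 shared slide 2, so CR against SD coincides with slide, while CR shares slide 2 with Met and SD shares slide 1 with Met. Some control spots set all CR arrays apart, while hur_1 overlapped between CR and Met. The control mr_1 was at 3.54 to 3.87 in CR, 3.11 to 3.42 in SD and 3.02 to 3.43 in Met. The control miRNABrightCorner30 was at -0.0545 to 0.0176 in CR, 0.137 to 1.54 in SD and 0.324 to 0.793 in Met. On Met 4 and 5, on the slide of CR, these were at 3.40 and 3.43 and at 0.402 and 0.750. The part of this difference in the results was not tested. The muscle miRNAs miR-1a-3p, miR-133a-3p and miR-206-3p were detected on CR 5 alone, where their summed signal was 801, against 0.3, the floor of the software, on every other array. Their part in the results was not tested. The liver label was borne out by miR-122-5p, the defining hepatocyte miRNA, which was detected on 15 of 15 arrays. All z-scores in the text are those of the natural log of the median spot signal, in SDs of all spots on the same array.

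Levels of miR-21a-5p were low in CR liver on 3 arrays and close to the other diets on the remaining 2. In z-scores, the SD mice were at 2.96, 3.51, 3.57, 3.52 and 3.26. The Met mice were at 3.16, 3.10, 3.60, 3.38 and 3.43, and the ranges of SD and Met overlapped over most of their length. The CR mice were at 3.07, 0.838, 0.883, 2.40 and 2.93. CR 2 and CR 3 thus lay far below every other array, CR 4 lay between them and the rest, CR 5 lay just under the lowest SD mouse, and CR 1 lay inside the range of the SD and Met mice. Group means were 3.36 ± 0.254 in SD, 2.02 ± 1.09 in CR and 3.33 ± 0.204 in Met (SD, n = 5). The difference CR minus SD was -1.34 in z-score and CR minus Met was -1.31. As Z ratios, which divide a difference by the SD of the differences over all 696 miRNAs, these were -8.06 and -8.43. Among the 178 tested miRNAs, those detected on every array of at least 1 group, these were the second lowest and the lowest difference, which ranked 5th and 3rd with background-subtracted signals and 10th in both with the total gene signal. In order of level CR came lowest, then Met, then SD, and Met and SD were not separated beyond their spread.

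The 2 mice with the lowest values carried much of the size of this difference. Without CR 2 and CR 3, the mean of the remaining 3 CR mice was 2.80 ± 0.357 and the Z ratios were -4.90 against SD and -5.63 against Met. Without CR 5, the array with muscle miRNAs, the Z ratios were -8.30 and -8.52. Within slide 2, where CR and Met were hybridized together, the CR minus Met Z ratio was -8.24, and with slide as a block the CR minus SD Z ratio was -8.15. Both rest on Met 4 and Met 5, the only Met arrays on slide 2, since Met alone was on both slides. The part of array quality in the low values of CR 2 and CR 3 was not tested.

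Both probes for miR-21a-5p gave the same picture, as the plot of probe signals by mouse shows. Each probe had 10 spots per array, none saturated, and all 140 and 146 spots kept after 10 and 4 outlier spots were left out were well above background. Spots of a probe differed little within an array, with a median coefficient of variation of 3.47% for the brighter and 2.78% for the dimmer probe and highest values of 7.43% and 8.83%. The brighter probe had background-subtracted median signals of 1632, 2279, 3186, 2309 and 2116 in the SD mice. In the Met mice it had 1951, 1805, 2616, 2457 and 2770. In the CR mice the brighter probe had 1875, 179.5, 167.6, 890.1 and 1691. CR 1 and CR 5 were inside the range of the SD and Met mice on this scale, and the other 3 CR mice were below it.

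The dimmer probe had signals of 898.9, 1303, 1786, 1364 and 1205 in SD and of 1046, 947.0, 1468, 1142 and 1332 in Met. In the CR mice it had 899.5, 91.8, 93.5, 438.2 and 831.4. CR 1 was level with the lowest SD mouse on this probe, and the other 4 CR mice were below all SD and Met mice. Against the median of the 10 SD and Met mice, CR 2 was 12.8-fold lower on the brighter and 13.7-fold lower on the dimmer probe, and CR 3 was 13.7-fold and 13.4-fold lower. CR 4 was 2.58-fold and 2.86-fold lower on the same measures, while CR 1 was 1.22-fold and 1.39-fold lower. CR 5 was 1.36-fold and 1.51-fold lower. These folds are of signals not scaled between arrays, so they include any difference in the overall signal of an array. With background-subtracted signals set to the 75th percentile of detected probes, CR 2 and CR 3 were at -0.615 and -0.398 in log2. The SD and Met mice were at 1.56 to 2.26 on that scale. The ratio of the brighter to the dimmer probe ran from 1.69 to 1.91 on slide 1 and from 1.79 to 2.15 on slide 2, so the probes kept nearly the same proportion while the signal itself fell by a far larger factor.

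**Figure D1:**
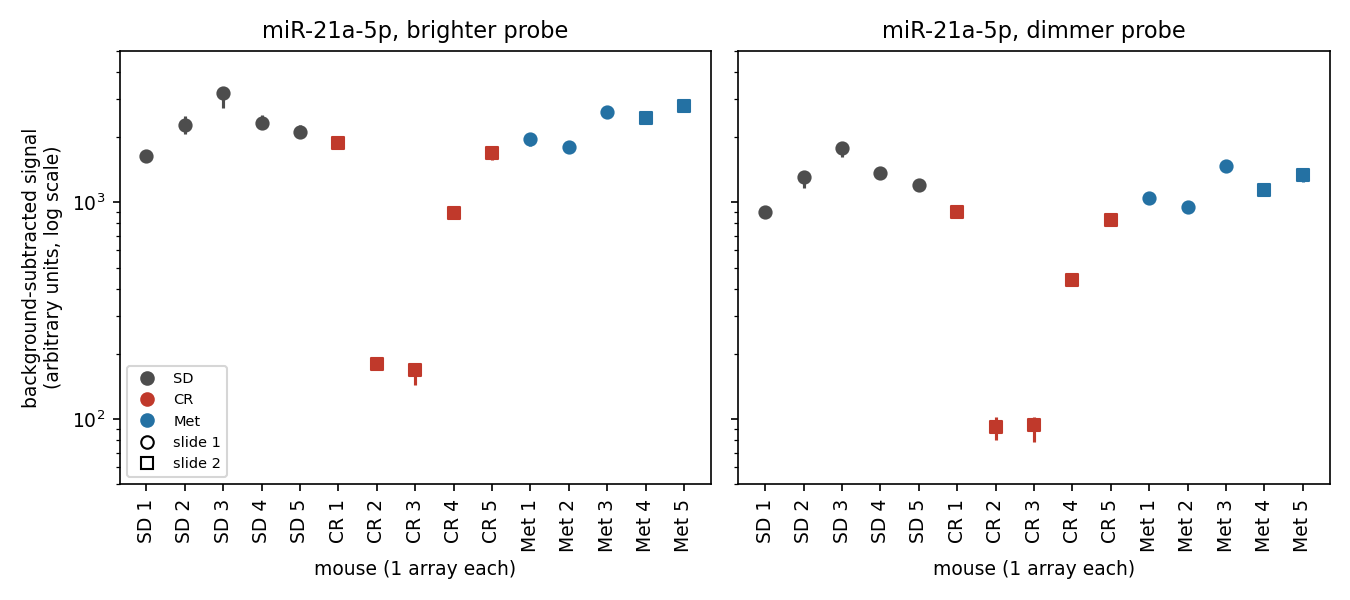
Background-subtracted median signal of each miR-21a-5p probe (arbitrary units, log scale) in each of 15 mice, in color by diet, with circles for slide 1 and squares for slide 2; vertical lines, mostly hidden by the symbols, run from the lowest to the highest of up to 10 spots. The signals are not scaled between arrays. On both probes CR 2 and CR 3 sit at 91.8 to 179.5 and CR 4 at 438.2 to 890.1, while the SD and Met mice sit at 898.9 or above.

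The spread among CR mice was itself large for this miRNA. The SD over the 5 CR mice, 1.09, was the largest of the 178 tested miRNAs, whose median was 0.0849. The CR values by which this miRNA was chosen also make up that SD, so its rank is a description with no test. Among the SD mice its SD of 0.254 ranked 14th of 178, and among the Met mice its SD of 0.204 ranked 19th. Each CR mouse was also set against the range of the 10 SD and Met mice over all tested miRNAs. On CR 2, 66 of 178 miRNAs lay below that range and 42 above it, and on CR 3 the counts were 74 and 37. On CR 4, 54 lay below and 22 above, against 16 below and 24 above on CR 1 and 16 below and 23 above on CR 5. miR-21a-5p had the lowest difference from the SD and Met mean of all 178 on CR 2 and on CR 3, and ranked 2nd, 6th and 7th on CR 4, CR 5 and CR 1.

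These ranks depended on the scale. With log2 signals set to the 75th percentile of probes detected on all arrays, the median CR minus SD difference of the 178 miRNAs moved from -0.0161 in z-score to 0.41 in log2, and 141 to 143 miRNAs stood above the SD and Met range on CR 2 and CR 3. On that scale miR-21a-5p still had the lowest difference on both arrays, and CR minus SD was -1.11 in log2, or -1.52 relative to that median. With background-subtracted signals it ranked 2nd on CR 2, 5th on CR 3 and 4th on CR 4, but 19th on CR 5 and 23rd on CR 1.

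Between Met and SD, no difference in miR-21a-5p passed the test. Met minus SD was -0.0327 in z-score, with a 95% interval from -0.825 to 0.760 and a Z ratio of -0.537, and limma's adjusted p was 0.953. With slide as a block the Z ratio was -1.51 and the adjusted p 0.992. The fit pooled the spread of all 3 groups, the CR mice included, and the sign of the difference turned with the scaling and with the mice left out. Limits of p of 0.05 or less, adjusted p of 0.3 or less and an absolute Z ratio of 1.5 or more were met by 2 of 178 miRNAs (1.12%) as lower and 0 (0%) as higher in Met. An unadjusted limma p under 0.05 was seen for 8 lower and 4 higher miRNAs, and the methods' pairwise test called 4 and 9.

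miR-21a-3p, the arm that is mostly degraded, showed no fall under CR that passed the test. It was detected on 14 of 15 arrays, all but SD 1, and close to background. Of its 4 probes with 5 spots each, 2 carried nearly all of the signal, with 59 of 73 and 52 of 74 spots well above background, while the others had 2 of 73 and 0 of 73. In z-scores, the SD mice were at -0.336, 0.0188, -0.0567, -0.0416 and -0.194. The CR mice were at -0.00688, -0.101, -0.135, -0.0732 and -0.0251. The Met mice were at -0.255, -0.187, 0.0196, -0.125 and -0.165. The CR mice lay inside the range of the SD mice, and CR 2 and CR 3, with the lowest 5p levels, were the lowest of the CR mice for 3p as well but above 2 of the SD mice.

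Means of miR-21a-3p were -0.122 ± 0.143 in SD, -0.0683 ± 0.0530 in CR and -0.142 ± 0.102 in Met (SD, n = 5). CR minus SD was 0.0536, with a 95% interval from -0.0734 to 0.181 and a limma adjusted p of 0.511. Without SD 1, the array on which it was not detected, its Z ratio went from 0.322 to 0.000575. CR minus Met was 0.0741, from -0.0529 to 0.201, with an adjusted p of 0.317, and Met minus SD was -0.0205, from -0.147 to 0.106, with an adjusted p of 0.930. None of these met the limits, which 26 (14.6%) and 5 (2.81%) of 178 miRNAs met as lower and higher in CR than in SD, and 29 (16.3%) and 8 (4.49%) as lower and higher in CR than in Met. The balance for CR against SD turned with the scale, to 7 lower and 117 higher on the 75th percentile of detected probes, 23 and 52 with background-subtracted signals and 28 and 36 with the total gene signal, and it was 13 and 4 with slide as a block. On the scale of the 75th percentile of detected probes, miR-21a-3p met the limits as higher in CR, with Z ratios of 2.61 against SD and 2.66 against Met and adjusted p of 0.0172 and 0.0455, beside the shift of nearly all miRNAs on that scale given above. The difference CR minus SD between the arms was not tested as such.

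**Figure D2:**
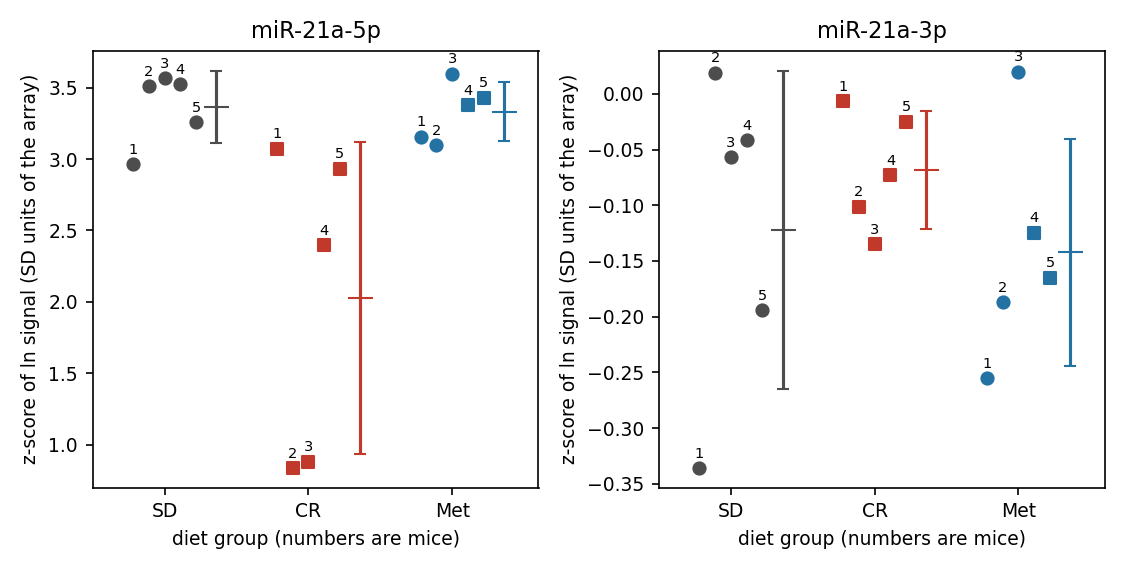
z-score of the ln signal of miR-21a-5p and miR-21a-3p in each mouse by diet, on axes of different ranges, with circles for slide 1 and squares for slide 2; the bars beside the points are mean ± SD (n = 5). For miR-21a-5p, CR 2 and CR 3 lie at 0.838 and 0.883 under all other mice, while for miR-21a-3p all CR mice lie between -0.135 and -0.00688, inside the range of the SD mice.

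The arms were most alike among the SD and Met mice. Over these 10 arrays the Pearson r of miR-21a-3p with miR-21a-5p was 0.923 and Spearman's rho was 0.903, the highest of the 177 other tested miRNAs by either measure, whose median r was 0.0998. Without SD 1 and Met 2, the arrays farthest from the median of miR-21a-5p, r was 0.919 over 8 arrays, but 0.707, ranked 18th, with the 75th percentile of all probes, 0.566, ranked 8th, with that of detected probes and 0.00122, ranked 72nd, after quantile normalization. Over the 8 arrays of slide 1 it was 0.95. Over all 15 arrays r was 0.116 and rho 0.321, which ranked 95th and 74th, with the 5p arm far below the other arrays on CR 2 and CR 3 and the 3p arm inside their range. The r over the SD and Met arrays was 0.925 with background-subtracted signals and 0.904 with the total gene signal, again the highest of 177. It was 0.565 with the 75th percentile of detected probes and 0.784 with that of all probes, and it was 0.441, ranked 26th, after quantile normalization. The points share the hybridization and scan of an array, and these correlations are descriptions with no test.

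Likeness to miR-21a-5p was then measured for each of the 177 other tested miRNAs as Pearson r over the 15 arrays. The median r was 0.166, and 37 miRNAs had r of 0.8 or more while 19 had -0.8 or less. On the 75th percentile of detected probes the median r was -0.873, with 7 at 0.8 or more and 117 at -0.8 or less, and with background-subtracted signals it was -0.596, with 30 and 58. The 12 with the highest r were miR-192-5p, miR-101b-3p, miR-30e-5p, miR-19b-3p, miR-148a-3p, miR-101a-3p, miR-193a-3p, miR-15a-5p, miR-29c-3p, miR-16-5p, miR-194-5p and miR-30b-5p, with r from 0.956 to 0.982. Their mature sequences are shown because they share a profile over the mice and mostly not a seed. RefSeq held 11 of the 12, the exception being miR-30b-5p, and capitals mark the seed.
miR-192-5p: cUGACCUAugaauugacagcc
miR-101b-3p: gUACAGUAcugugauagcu
miR-30e-5p: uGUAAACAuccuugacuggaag
miR-19b-3p: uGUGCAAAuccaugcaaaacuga
miR-148a-3p: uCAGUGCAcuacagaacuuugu
miR-101a-3p: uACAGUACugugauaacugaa
miR-193a-3p: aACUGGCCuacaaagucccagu
miR-15a-5p: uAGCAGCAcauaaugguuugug
miR-29c-3p: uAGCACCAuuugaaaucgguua
miR-16-5p: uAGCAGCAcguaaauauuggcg
miR-194-5p: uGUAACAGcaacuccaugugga
Of these 11 sequences, miR-15a-5p and miR-16-5p share a seed, the other 9 each have a seed of their own, and none has the seed of miR-21a-5p. The seeds of miR-101a-3p and miR-101b-3p differ only by a shift along a stretch that both sequences share. miR-30b-5p, by name of the same family as miR-30e-5p, is not in this count. The G and C content of the 11 ran from 33.3% to 50%. A comparison of base content over all tested miRNAs was not made, since a sequence was found for 137 of 178 (77.0%), under the 80% set for it.

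Of the 12, 3 were on the list of 4 hepatocyte miRNAs. miR-192-5p and miR-194-5p, which are made from shared transcripts and are abundant in liver, had r of 0.982 and 0.957. miR-148a-3p, a miRNA of mature hepatocytes, had r of 0.976. The r of miR-122-5p, the defining member of that list, was -0.0663. miR-192-5p was at 2.85, 2.96, 3.27, 2.94 and 3.14 in SD, at 2.91, 1.23, 1.36, 2.43 and 2.79 in CR and at 3.07, 3.06, 3.21, 3.05 and 3.21 in Met. It was low in the same 3 CR mice as miR-21a-5p, with CR 1 inside the range of the other diets. miR-101b-3p, of a family known to repress the chromatin enzyme EZH2, was at 0.854, -0.0294, -0.0756, 0.554 and 0.706 in CR against 0.890 or more in every SD and Met mouse. All 12 had lower means in CR than in SD, by 0.388 to 0.887 in z-score, against 1.34 for miR-21a-5p. CR is in both this difference and the r over 15 arrays, so the former is no separate support of the latter.

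**Figure D3:**
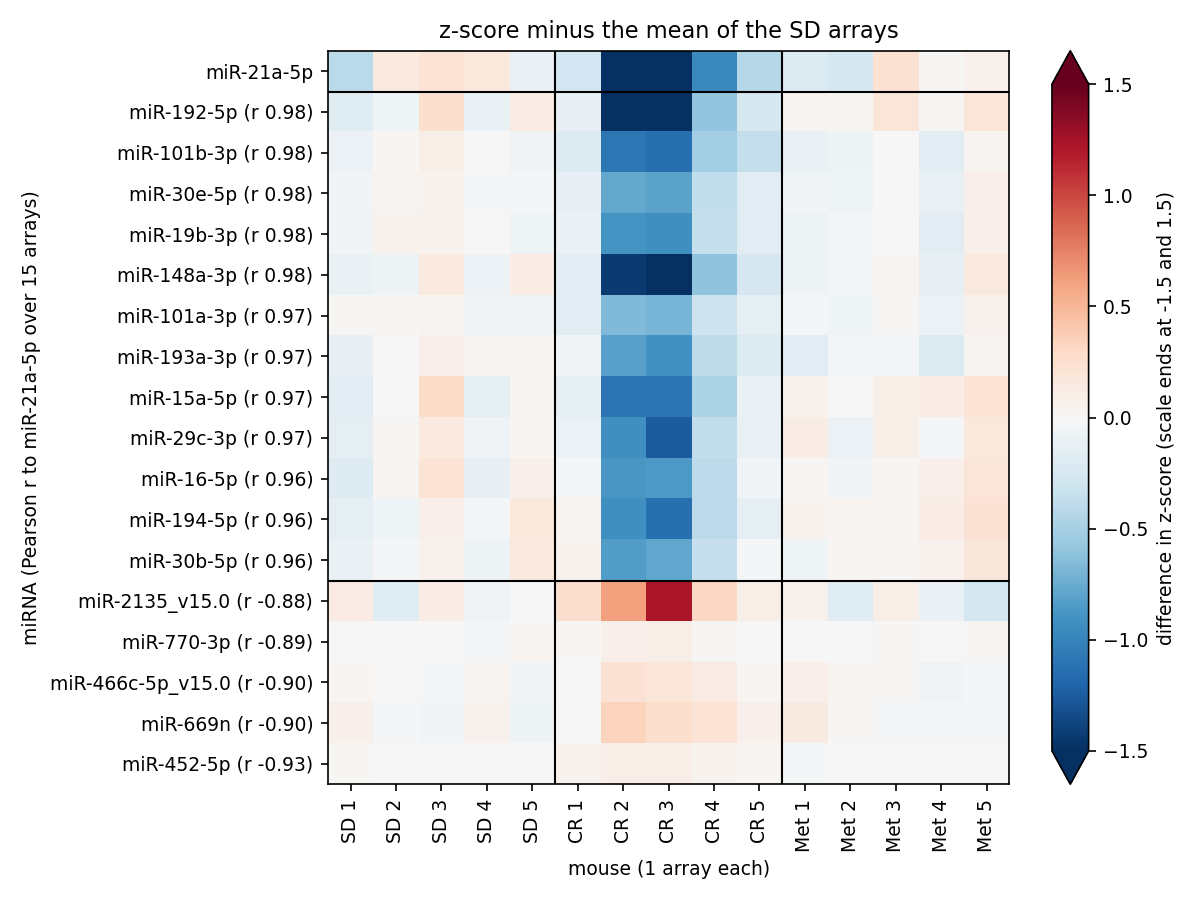
Heat map of the z-score minus the mean of the SD arrays in each of 15 mice for miR-21a-5p, the 12 miRNAs with the highest and the 5 with the lowest Pearson r to it; blue is lower and red higher, and the color scale ends at -1.5 and 1.5. The blue of miR-21a-5p and the 12 lies mainly on CR 2, CR 3 and, paler, CR 4, and the red of miR-2135_v15.0 on CR 3 and CR 2.

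The likeness rested in large part on CR 2 and CR 3. Without them, 9 miRNAs in place of 37 had r of 0.8 or more, and r ranged from 0.692 to 0.887 for the 12, of which 9 stayed at 0.8 or more. After each group's mean was taken off, r was 0.928 to 0.972 for the 12. Over the SD and Met arrays alone, r was 0.227 to 0.633 for the 12, and the only miRNA at 0.8 or more was miR-21a-3p. By Spearman's rho, in which the distance of CR 2 and CR 3 counts less, 8 of the 12 were at 0.8 or more, from 0.625 to 0.889. Scaling mattered as well, since on the 75th percentile of detected probes r for the 12 ran from -0.344, for miR-101a-3p, to 0.969, for miR-192-5p. With background-subtracted signals it ran from 0.846 to 0.975.

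The 5 with the lowest r were miR-452-5p, miR-669n, miR-466c-5p_v15.0, miR-770-3p and miR-2135_v15.0, from -0.925 to -0.881. Apart from miR-2135_v15.0, which had z-scores of 3.70 to 5.20, they were dim, between -0.255 and 0.259. Their CR minus SD differences ran from 0.0416 to 0.496. miR-2135_v15.0 was at 4.21, 4.58, 5.20, 4.28 and 4.06 in CR and between 3.70 and 4.09 in the other mice, so that CR 3 and CR 2 were highest where miR-21a-5p was lowest. Without CR 2 and CR 3 the r of these 5 ran from -0.761 to -0.288.

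**Figure D4:**
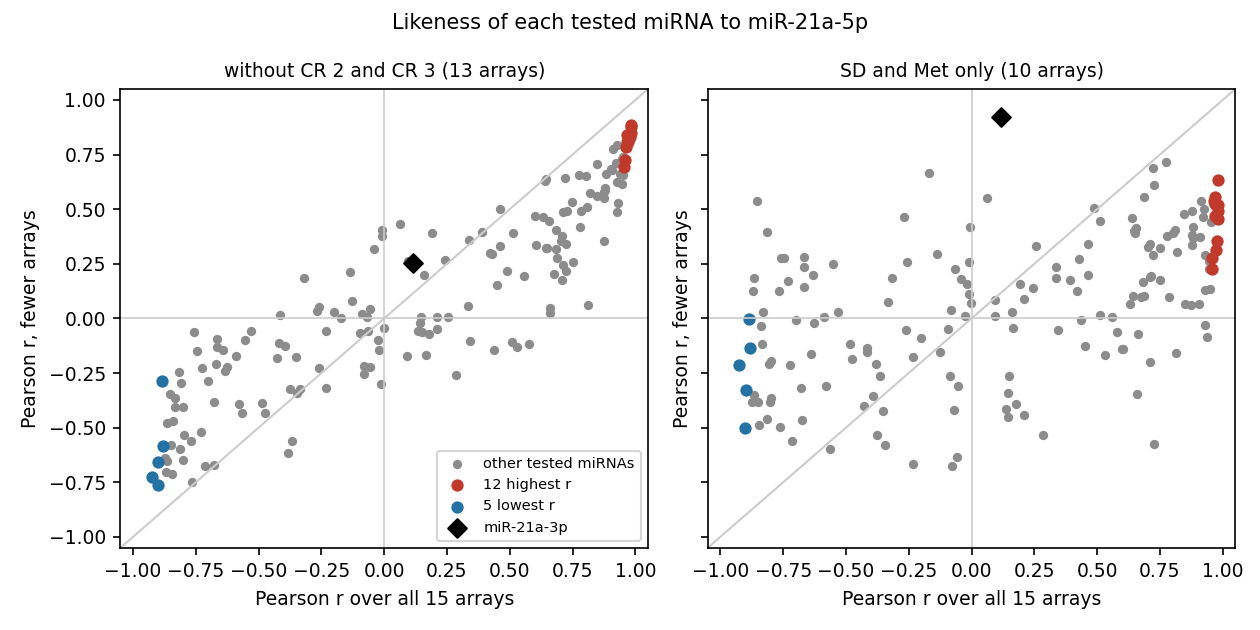
Pearson r of each of 177 tested miRNAs to miR-21a-5p over all 15 arrays (horizontal axis) against r without CR 2 and CR 3 (left, 13 arrays) and over SD and Met arrays (right, 10 arrays); red marks the 12 highest, blue the 5 lowest and the diamond miR-21a-3p, and the diagonal marks equal values. The 12 highest drop to between 0.692 and 0.887 on the left and to between 0.227 and 0.633 on the right, where miR-21a-3p is highest at 0.923.

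Other miRNAs known in liver inflammation and fibrosis were looked at as a list of 18, of which 16 were tested and miR-146b-5p and miR-181b-5p were detected on no array. Against SD, 2 of 16 met the limits of limma as lower in CR and 0 as higher, with 5 and 2 at an unadjusted p under 0.05 and 2 and 0 called by the methods' pairwise test, beside 14.6% and 2.81% of all tested miRNAs, so the share was near that of all miRNAs. They were miR-29b-3p and miR-29c-3p, of a family known to repress collagens, while the related miR-29a-3p had a difference of 0.0474 and an adjusted p of 0.796. miR-29b-3p fell by 0.634 in z-score, with an adjusted p of 0.0154 by limma and a Z ratio of -3.81. miR-29c-3p fell by 0.546, with an adjusted p of 0.0365 and a Z ratio of -3.29. Their r to miR-21a-5p over the 15 arrays was 0.939 and 0.967. Without CR 2 and CR 3, 1 of the 16 met the limits as lower in CR than in SD, beside 18 of all 178. The median difference of the 16 was -0.0249, against -0.0161 over all tested miRNAs. Against Met, 3 of 16 met the limits as lower in CR, the additional one being miR-34a-5p, a target of p53, with a Z ratio of -1.70 and an adjusted p of 0.0142. In Met against SD, 0 of 16 met the limits, with 1 at an unadjusted limma p under 0.05 and 1 called by the methods' pairwise test, both as higher. Over all 178 miRNAs, 4 and 9 were higher by the same measures.

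Summed marker signals of liver cell types were low on CR 2 and CR 3, where miR-21a-5p was lowest. The sums are total gene signals with no scaling between arrays. On the 75th percentile of detected probes, 143 and 141 of 178 miRNAs stood above the SD and Met range on CR 2 and CR 3. The part of the overall signal of an array in these sums was not tested. Of 4 hepatocyte miRNAs, miR-192-5p, miR-194-5p and miR-148a-3p met the limits as lower in CR than in SD, with Z ratios of -5.33, -3.05 and -4.89 and limma adjusted p of 0.0257, 0.0440 and 0.0196, and all 3 did so against Met as well, beside 14.6% and 16.3% of all tested miRNAs. miR-122-5p, the defining member, did not, at 6.07 ± 0.214 in SD, 6.29 ± 0.0985 in CR and 6.32 ± 0.0549 in Met, with an adjusted p of 0.155 for CR against SD. The summed total gene signal of the 4 was 19340 to 30433 in SD, 10572 to 28177 in CR and 25228 to 30603 in Met. It was lowest on CR 3, at 10572, and CR 2, at 15269.

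Of 6 leukocyte and Kupffer cell miRNAs, 4 were tested and 0 met the limits in CR against SD or Met by limma or the methods' pairwise test. Beside 44 and 46 of all 178 tested miRNAs, 2 and 1 of the 4 were lower against SD and Met at an unadjusted limma p under 0.05, and 0 were higher. Lower in both comparisons was miR-142-3p, with limma adjusted p of 0.0159 against SD and 0.0142 against Met. It missed only the Z ratio limit, at -0.975 and -1.22. The defining member of the list, miR-223-3p, at 0.185 ± 0.137 in SD and -0.00588 ± 0.159 in CR, had an adjusted p of 0.0872 and a Z ratio of -1.15. The summed signal of the 6 was 131 to 246 in SD, 28.4 to 213 in CR and 136 to 347 in Met, and lowest on CR 3 and CR 2, at 28.4 and 46.2. For the endothelial miR-126-3p and miR-126-5p the sums were 620 to 886, 216 to 839 and 665 to 877. By limma, miR-126-3p met the limits as lower in CR than in Met (Z ratio -2.72, adjusted p 0.0852), beside 29 of all 178 (16.3%). The methods' pairwise test called 0 of these 2 miRNAs against Met. Against SD, 0 of the 2 met the limits by either test, and limma's adjusted p for miR-126-3p was 0.156. Lower at an unadjusted limma p under 0.05 were 1 of the 2 against SD and 2 against Met. Of 5 stellate cell and fibroblast miRNAs, 0 met the limits by limma or the methods' pairwise test. Beside 44 lower and 30 higher of all 178, 1 was lower and 2 were higher in CR than in SD at an unadjusted limma p under 0.05. The sums of the 5 were 171 to 229, 60.7 to 336 and 178 to 251, and the difference CR minus SD was -0.165 for their defining member miR-199a-3p. Erythroid sums were 265 to 726, 33.9 to 788 and 291 to 621, and miR-451a had a mean of 1.55 ± 0.350 in SD and 0.921 ± 0.847 in CR and an adjusted p of 0.144. Of the bile duct list, miR-200c-3p, miR-141-3p and miR-429-3p were detected on no array, the sums were 8.45 to 19.2, 0.5 to 40.7 and 0.5 to 27.7, and miR-200b-3p alone was tested and did not meet the limits. The highest CR sums of the stellate cell and fibroblast, erythroid and bile duct lists were all on CR 5, the array with muscle miRNAs. The next highest were on CR 1, at 175, 349 and 12.1. The part of cell content in the level of miR-21a-5p was not tested.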

How the data were processed

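Cy3-labeled liver RNA was read on Agilent Mouse miRNA arrays with 1 color. The authors deposited the scanner output of Feature Extraction 11.5.1.1, with spot intensity on a linear scale and no normalization between arrays, and flags of 0 or 1, the other deposited values, for detection and outlier spots. They also deposited a score per spot. Set against the scanner output, it was the z-score of the natural log median signal over all spots, within 0.0005. Per the file headers the array annotation refers to build mm9, and no position was taken from it. Sequences and positions come from RefSeq in build GRCm38.p6.

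The same z-scores, without outlier spots and averaged over spots and then probes, were the main values. Tested were the 178 of 696 miRNAs detected on every array of a group or more. A single limma fit (version 3.58.1, R 4.3.3) with a variance trend took in 15 arrays, and Benjamini-Hochberg adjustment ran over all 178. The study's methods gave the limits on p, FDR and Z ratio, and their pairwise z-test was an alternative. The fit was tested on simulated data in which every group had the pooled spread of the SD and Met mice. That test does not cover the larger spread seen among CR mice. The 5 arrays per group limit the precision. Tables and plots were made in Python 3.11.15 with pandas 2.3.3, numpy 2.4.6 and matplotlib 3.10.9.

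The members and lists were chosen with earlier results of these data known. Named miRNAs are the arms of miR-21a, miRNAs with its seed, the 12 highest and 5 lowest r, and list members that met the limits or define a cell type. Values of miR-142-3p and miR-126-5p, which met the limits on p and adjusted p but not on the Z ratio, are also given. Alternatives were other scalings, background correction, probe summaries, filters, tests, blocks and mice left out. Background-subtracted signal, kept outlier spots, the fits without CR 2 and CR 3 and the fits of slide 2 were chosen after seeing the data.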

Additional observations from a re-analysis of the deposited data

Results flagged for a closer look

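Of 60 groups of 5 arrays looked at, for miR-21a-5p, miR-21a-3p, the ratio of the 2 probes of miR-21a-5p and the 17 miRNAs most and least like it, 1 held a value far from the rest, and chance gives about 1 in 20. In the Met group, miR-669n stood at a z-score of 0.0621 on Met 1, against -0.106 to -0.0576 on the other 4 Met arrays. No CR value of miR-21a-5p was marked in this way, since CR 2 and CR 3 lay close to each other.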

How the results depend on the processing

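The CR minus SD Z ratio of miR-21a-5p, for which it was chosen, was negative in 30 of 30 alternatives, from -8.57 to -3.26, and CR minus Met in 31 of 31, from -8.90 to -3.13. Some of these alternatives could not move the Z ratio from its main value. They were no filter, detection on all arrays, the replicate block and mice left out of the group not compared. For CR minus Met, slide as a block and slide 2 alone gave the same value, -8.24. The smallest sizes came from the total gene signal (-3.26 and -3.13) and the background-subtracted signal (-3.74 and -3.85), and values over 1.5 times smaller also came without CR 2 and CR 3 for CR minus SD (-4.90). With each mouse left out in turn they ran from -8.57 to -7.16 and from -8.90 to -7.64.

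Met minus SD of miR-21a-5p met the limits in none of 33 alternatives and changed sign with quantile normalization (0.919), normexp with an offset of 50 (0.0963) and the brightest probe (0.545), and ran from -2.21 to 0.378 with 1 mouse left out. For miR-21a-3p, the 75th percentile of detected probes made CR higher than SD (2.61) and Met (2.66) and turned Met minus SD to 0.737. Total gene signal gave miR-21a-3p a CR minus Met Z ratio of 2.82 without meeting the limits. With 1 mouse left out, its Met minus SD ran from -1.23 to 0.256 and its CR minus SD from 0.000575 to 0.55. The cause of these turns was not tested.

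The count of miRNAs with r of 0.8 or more, 37, became 7 with the 75th percentile of detected probes, 23 with z-scores over tested miRNAs, 11 by Spearman's rho, 9 without CR 2 and CR 3, 1 over SD and Met arrays and 62 on slide 2. The 2 called members of the inflammation and fibrosis list, both lower in CR, became 8, all higher, with the 75th percentile of detected probes, where 124 of 178 miRNAs were called. They became 5 with normexp (48 of 178 called), total gene signal (64) or slide as a block (17), 4 with quantile normalization (39), the brightest probe (33), background-subtracted signal (75) or an adjusted p of 0.05 or less (55), and 1 without CR 2 and CR 3 (22).

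Mice with the same number in different groups did not pair, since 4 of 15 pairs had r over 0.1, from -0.562 to 0.714. The replicate block could not move a Z ratio, since every group holds each number. The Z ratios were thus again -8.06, -8.43 and -0.537 for miR-21a-5p and 0.322, 0.478 and -0.337 for miR-21a-3p. With that block 2 list members were called, and 1 more miRNA, miR-451a, met the limits in CR against SD (32 in place of 31), with no other change of calls. The comparison of base content was not run, since too few tested miRNAs had a sequence. miR-21a-3p was near background on most spots of 2 of its probes, which limits its precision.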
